A study of Mus musculus with 5 samples.

Results

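The genes described here are 10 antiviral effectors induced by interferon, listed around Rsad2 (viperin). They are Rsad2, Cmpk2, Mx1, Mx2, Bst2, Ifi44, Xaf1, Rtp4, Eif2ak2 and Ifi27l2a. They were listed by symbol and are 10 of the 54532 gene IDs in the table. All 10 had enough counts to be tested, among 16226 tested genes. RNA was sequenced from whole kidney of wild type C57BL/6J mice, an inbred strain. All mice were males aged 8 weeks that were injected intraperitoneally once a day for 3 days and sampled on day 3. The 3 control libraries came from mice given vehicle, whose composition is not given in the sources used here. The other 2 libraries came from mice given 10 mg/kg of DMXAA, a small molecule that activates the mouse form of STING. The labels number the libraries as replicates without saying that each is a separate mouse, so p-values measure the spread between these libraries. In whole tissue, more cells that express a gene and more RNA per cell cannot be told apart.

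STING is the adaptor through which DNA in the cytosol switches on type I interferon genes. Interferon binds its receptor, the kinases Jak1 and Tyk2 activate transcription factors, and these bind interferon-stimulated response elements in the promoters of many effector genes. Effectors such as viperin, tetherin and protein kinase R then block separate steps of virus replication. Kidney cells, like most nucleated cells, carry the type I receptor.

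Levels are CPM, counts per 1000000 counted reads, with library sizes scaled by edgeR's trimmed mean of M-values. Log2 fold changes are DMXAA over vehicle, from edgeR's quasi-likelihood test on the counts, with their standard error (SE). Total counts ran from 17667490 to 20264228 per library. The tissue label fitted its markers: 6 proximal tubule genes summed to 15700 to 23700 CPM in every library, mostly from Kap. For 4 of the 6 both DMXAA values exceeded all vehicle values, against 13.7% of tested genes. Of these, Slc5a2 (log2 fold change 0.64) and Miox (0.60) had an unadjusted p below 0.05, where 3.89% of tested genes were higher. Slc34a1 (0.18) and Kap (-0.07) overlapped between groups, as did the sum, at 21900 and 21500 CPM with DMXAA. Of 5 endothelial genes, Tie1 (0.45) and Kdr (0.28) passed both measures, while Cdh5 (0.32), Pecam1 (0.22) and Emcn (-0.24) overlapped. The 5 summed to 403, 227 and 319 CPM with vehicle and 346 and 373 CPM with DMXAA. The 5 neutrophil markers overlapped between groups, summing to 2.43, 19.1 and 48.7 CPM against 3.55 and 5.22 CPM. Vehicle library 1 stood apart in 5 adipocyte markers, which summed to 372 CPM there and to 0.0555 to 7.43 CPM elsewhere. It also stood apart in 6 urothelial markers, at 115 CPM against 2.22 to 12.7 CPM. The 5 red blood cell genes were all lower with DMXAA at an unadjusted p below 0.05, summing to 280, 170 and 73.3 CPM against 52.3 and 29.9 CPM, and the part of these cell type markers in the results was not tested. The 5 general leukocyte markers overlapped between groups, at 70.2, 83.1 and 108 CPM across vehicle libraries 1 to 3 and 97.7 and 68.9 CPM across DMXAA libraries 1 and 2. So did the sums of 8 macrophage and monocyte markers and of 7 T and NK cell markers. Of those 7, Gzma (log2 fold change 1.5) was higher at an unadjusted p below 0.05. Only 3 of the 7, Gzma included, had estimates above 0, and their median log2 fold change was -0.13. The 4 B cell markers summed to 2.38, 2.67 and 3.72 CPM against 2.16 and 1.29 CPM. Among them Ms4a1 (-1.9) was lower at an unadjusted p below 0.05, where 2.65% of tested genes were.

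All 10 effectors had higher estimates in the DMXAA kidneys, where 46.9% of all tested genes did. Their median log2 fold change was 0.69, against -0.01 over all tested genes. In 6 genes (Rsad2, Cmpk2, Mx1, Mx2, Ifi44 and Xaf1) the lower DMXAA library exceeded the highest vehicle library, a pattern seen in 13.7% of tested genes. The groups overlapped for Bst2, Rtp4, Eif2ak2 and Ifi27l2a. The edgeR test called 0 of the 10 genes at an adjusted p below 0.05, as it called 0% of all tested genes. At an unadjusted p below 0.05 it counted 4 of them, all higher (Rsad2, Ifi44, Cmpk2 and Mx2), against 3.89% of tested genes higher and 2.65% lower. DESeq2 called Rsad2 and Ifi44 higher, where it called 0.252% of its tested genes higher. So did edgeR without an expression filter, which called 0.103% higher. The unadjusted count was 9 of 10 without vehicle library 2, where 6.73% of tested genes passed in that direction. It was 2 of 10 without DMXAA library 2, where 0.872% did. Without vehicle library 1, vehicle library 3 or DMXAA library 1 it was 4, 3 and 3, where 4.98%, 3.33% and 1.97% passed.

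**Figure D1:**
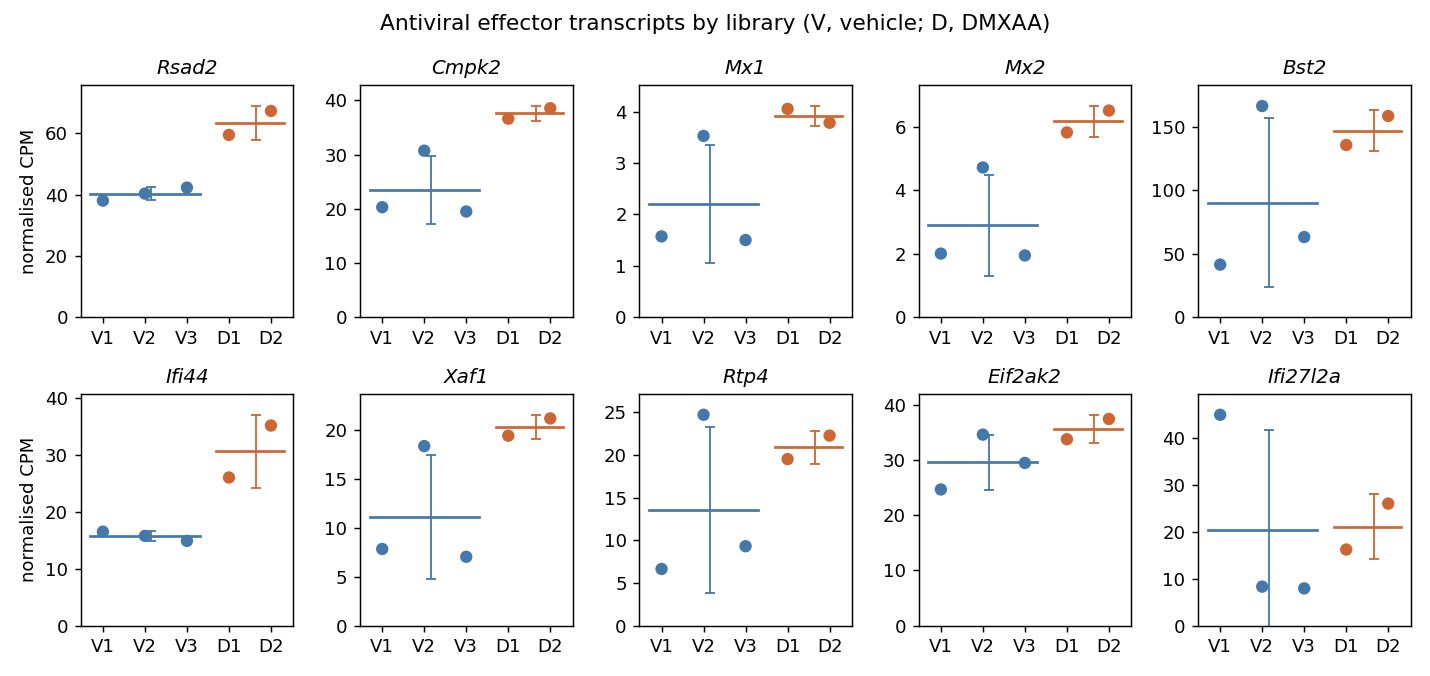
Normalised CPM (vertical axes, each from 0) of the 10 effector transcripts in vehicle libraries 1 to 3 (V1 to V3, blue) and DMXAA libraries 1 and 2 (D1, D2, orange); lines are group means and bars 1 SD, and the vehicle bar of Ifi27l2a is cut at 0. Rsad2 and Ifi44 have tight vehicle points below both DMXAA points, 7 genes have vehicle library 2 as their highest vehicle point, and Ifi27l2a is highest in vehicle library 1.

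Rsad2 encodes viperin, a radical-SAM enzyme that converts CTP into a chain-terminating nucleotide analogue. It was at 38.0, 40.3 and 42.3 CPM across vehicle libraries 1 to 3 and at 59.5 and 67.3 CPM across DMXAA libraries 1 and 2. The vehicle libraries lay close together, and the lower DMXAA library was 1.41 times the highest of them. The means were 40.2 ± 2.13 CPM (SD, n = 3) and 63.4 ± 5.53 CPM (SD, n = 2). The log2 fold change was 0.66 (SE 0.10; edgeR adjusted p = 0.535), the seventh smallest p of the table, and DESeq2's adjusted p was 0.0016. Without an expression filter the edgeR adjusted p was 0.041. The gene (ENSMUSG00000020641) lies on the minus strand of chromosome 12, from 26442746 to 26456452 on mm10.

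Cmpk2 encodes a mitochondrial nucleotide kinase that supplies CTP, the substrate of viperin, and is the neighbour of Rsad2. Its levels were 20.3, 30.7 and 19.5 CPM across vehicle libraries 1 to 3 and 36.6 and 38.6 CPM with DMXAA. Both DMXAA libraries were higher than all vehicle libraries, the lower one by 1.19 times. Cmpk2 had a log2 fold change of 0.68 (SE 0.20; edgeR adjusted p = 0.724). The fold was thus close to that of Rsad2, but the vehicle coefficient of variation was 26.7% against 5.3% for Rsad2. Cmpk2 (ENSMUSG00000020638; chromosome 12, 26469204 to 26479837, plus strand) and Rsad2 point away from each other with 12751 bases between their starts. The nearest tested protein-coding gene on the Rsad2 side, Rnf144a, ends 27492 bases away and had a log2 fold change of 0.09 (SE 0.27). On the Cmpk2 side the nearest was Colec11, 2114336 bases away, at 0.98 (SE 0.36) and 0.796 to 2.16 CPM.

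Ifi44, an interferon-induced cytoplasmic protein with reported antiproliferative and antiviral activity, was at 16.5, 15.8 and 14.9 CPM with vehicle and at 26.1 and 35.2 CPM with DMXAA. As for Rsad2, the vehicle libraries were tight (coefficient of variation 5.16%), and the lower DMXAA library was 1.58 times the highest vehicle library. Ifi44 had a log2 fold change of 0.96 (SE 0.15; edgeR adjusted p = 0.535), and DESeq2's adjusted p was 0.0014. The DMXAA libraries differed from each other by 1.35 times, more than for any other effector except Ifi27l2a. The estimate was 0.73 without DMXAA library 2 and 1.17 without DMXAA library 1. Ifi44 (ENSMUSG00000028037) lies on chromosome 3 from 151730922 to 151749960. Its paralogue Ifi44l was close to undetected, with 0 to 0.199 CPM.

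Mx1 and Mx2 encode dynamin-like GTPases that trap viral ribonucleoproteins. C57BL/6 and many other laboratory strains carry defective alleles, and RefSeq lists both genes as transcribed pseudogenes, whereas GENCODE M21 lists Mx1 as protein coding and Mx2 as a polymorphic pseudogene. Mx1 was at 1.57, 3.52 and 1.5 CPM across vehicle libraries 1 to 3 and at 4.05 and 3.78 CPM with DMXAA, from 27 to 76 counts per library. Mx2 was at 2.00, 4.72 and 1.94 CPM with vehicle and at 5.83 and 6.52 CPM with DMXAA, from 35 to 131 counts. In both genes vehicle libraries 1 and 3 were alike and low, and vehicle library 2 came close to the DMXAA libraries without reaching them. The lower DMXAA library exceeded vehicle library 2 by 1.07 times for Mx1 and by 1.23 times for Mx2. The log2 fold changes were 0.83 (SE 0.41) for Mx1 and 1.1 (SE 0.41) for Mx2, the largest estimate of the 10 genes, with edgeR adjusted p of 0.750 and 0.742. Without vehicle library 2 the estimates were 1.35 and 1.65. The genes lie on chromosome 16, Mx1 (ENSMUSG00000000386) from 97447035 to 97462907 and Mx2 (ENSMUSG00000023341) from 97535308 to 97560900. Their nearest tested protein-coding neighbours, Bace2 and Tmprss2, had log2 fold changes of -0.25 (SE 0.45) and -0.09 (SE 0.10).

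Xaf1, a proapoptotic partner of the caspase inhibitor Xiap, ordered the libraries as Mx2 did. It was at 7.84, 18.4 and 7.04 CPM with vehicle and at 19.4 and 21.2 CPM with DMXAA, so that the groups were separated by 1.06 times at their closest. Xaf1 had a log2 fold change of 0.88 (SE 0.40; edgeR adjusted p = 0.742), and 1.45 without vehicle library 2. Xiap itself was at 83.9 ± 9.97 CPM with vehicle and 94.9 ± 1.35 CPM with DMXAA (log2 fold change 0.18, SE 0.12). Xaf1 (ENSMUSG00000040483) lies on chromosome 11 from 72301629 to 72313733.

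Bst2 encodes tetherin, a membrane protein that holds budding virions on the cell surface. It was at 41.4, 167 and 63.2 CPM across vehicle libraries 1 to 3 and at 136 and 159 CPM with DMXAA. Vehicle library 2 was the highest of all 5 libraries, and the other vehicle libraries lay well below both DMXAA libraries. The log2 fold change was 0.71 (SE 0.52; edgeR adjusted p = 0.794) with all libraries and 1.5 (SE 0.21; adjusted p = 0.203) without vehicle library 2. It was 0.35 without vehicle library 1 and 0.50 without vehicle library 3. Bst2 is also 1 of 6 listed markers of plasmacytoid dendritic cells, which summed to 120, 244 and 134 CPM with vehicle against 213 and 226 CPM with DMXAA, Bst2 included. Among the rest, Siglech (0.0498 to 0.333 CPM) and Ccr9 (0.27 to 0.887 CPM) were near 0. Tcf4 was at 31.6 to 45.8 CPM, Irf8 at 19.95 to 44.2 CPM with its highest value in vehicle library 2, and Ly6d at 0.0995 to 12.7 CPM with its highest in vehicle library 1. Their part in the Bst2 values was not tested. Bst2 (ENSMUSG00000046718) lies on chromosome 8 from 71534255 to 71537456.

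Rtp4, a Golgi chaperone of G protein-coupled receptors with antiviral activity, had the same shape. It was at 6.65, 24.7 and 9.32 CPM with vehicle and at 19.5 and 22.3 CPM with DMXAA. Vehicle library 2 was again above both DMXAA libraries. The log2 fold change was 0.63 (SE 0.50; edgeR adjusted p = 0.803). It was 1.39 without vehicle library 2, 0.29 without vehicle library 1 and 0.42 without vehicle library 3. Rtp4 (ENSMUSG00000033355) lies on chromosome 16 from 23520291 to 23614222. Its exons share 296 bases with the gene model Gm45338 on the same strand, so some of its counts could be assigned otherwise.

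Eif2ak2 encodes protein kinase R, which senses double-stranded RNA and phosphorylates the translation factor eIF2 alpha. It was at 24.7, 34.6 and 29.4 CPM with vehicle and at 33.7 and 37.4 CPM with DMXAA, with vehicle library 2 between the DMXAA libraries. Its log2 fold change was 0.27 (SE 0.15; edgeR adjusted p = 0.758), below the 0.30 that marks the 90th percentile of all tested genes, and 0.15 without vehicle library 1. Eif2ak2 (ENSMUSG00000024079) lies on chromosome 17 from 78852564 to 78882573, and its exons overlap 221 bases of gene models on the opposite strand. The substrate gene Eif2s1 was at 53.7 ± 2.83 CPM with vehicle and 50.7 ± 0.05 CPM with DMXAA. The other eIF2 alpha kinases, Eif2ak1, Eif2ak3 and Eif2ak4, had log2 fold changes of 0.06 (SE 0.08), -0.11 (SE 0.10) and -0.15 (SE 0.13).

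Ifi27l2a, a small hydrophobic protein of the ISG12 family, departed from the other 9 genes. It was at 44.9, 8.30 and 7.93 CPM across vehicle libraries 1 to 3 and at 16.2 and 26.0 CPM with DMXAA. Vehicle library 1, the library rich in adipocyte and urothelial transcripts, was the highest, and both DMXAA libraries lay above the other vehicle libraries. The part of those transcripts in this value was not tested. The log2 fold change was 0.05 (SE 0.75; edgeR adjusted p = 0.994) with all libraries and 1.37 (SE 0.23; adjusted p = 0.200) without vehicle library 1. It was -0.32 without vehicle library 2, -0.34 without vehicle library 3 and -0.33 without DMXAA library 2, and 0.36 without DMXAA library 1. Ifi27l2a (ENSMUSG00000079017) lies on chromosome 12 from 103442167 to 103443680. Ifi27, a family member 1928 bases away, was not high in vehicle library 1: it was at 96.5, 156 and 87.1 CPM with vehicle and at 127 and 204 CPM with DMXAA.

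**Figure D2:**
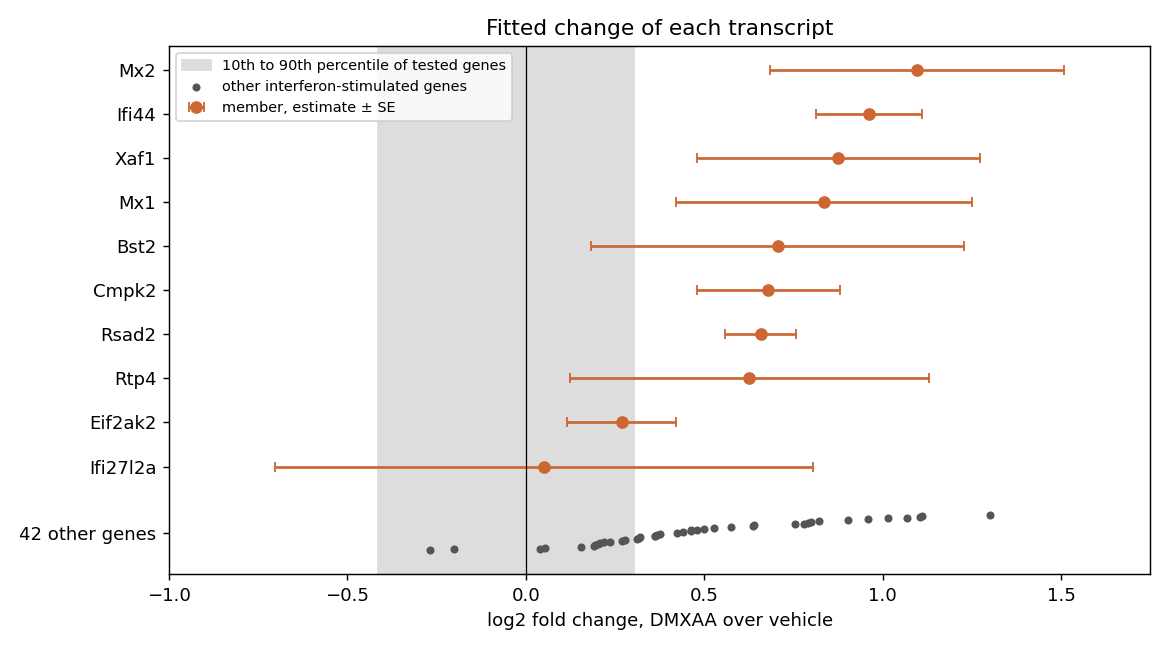
Log2 fold change of DMXAA over vehicle (horizontal axis) for each of the 10 effectors, with its standard error, and for 42 other interferon-stimulated genes (grey points, sorted by value); the shaded band holds the 10th to 90th percentile of all tested genes. All but Eif2ak2 and Ifi27l2a lie beyond the band, and the narrowest errors are those of Rsad2, Eif2ak2 and Ifi44.

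Vehicle library 2 set apart the effectors from one another. It was the highest vehicle library for 7 of the 10 genes, against 37.2% of all tested genes, and reached at least 2 times the mean of vehicle libraries 1 and 3 in 5 of them, against 1.22% of tested genes. That ratio was 3.19 for Bst2, 3.1 for Rtp4, 2.47 for Xaf1, 2.39 for Mx2 and 2.3 for Mx1. It was 1.54 for Cmpk2 and 1.28 for Eif2ak2, and 1.0 for both Rsad2 and Ifi44. The mean of DMXAA over vehicle libraries 1 and 3 ran from 3.13 for Mx2 and 2.82 for Bst2 to 1.58 for Rsad2 and 1.32 for Eif2ak2, with 0.80 for Ifi27l2a. The median centred log2 level of the 10 genes was -0.59, 0.23 and -0.65 in vehicle libraries 1, 2 and 3 and 0.40 and 0.62 in DMXAA libraries 1 and 2. In that summary the groups did not overlap. Vehicle library 2 and DMXAA library 1 were, however, closer to each other than the pooled within-group SD of the summary, 0.41. DMXAA library 2 was the higher of the DMXAA pair for 9 of the 10 genes, all but Mx1.

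**Figure D3:**
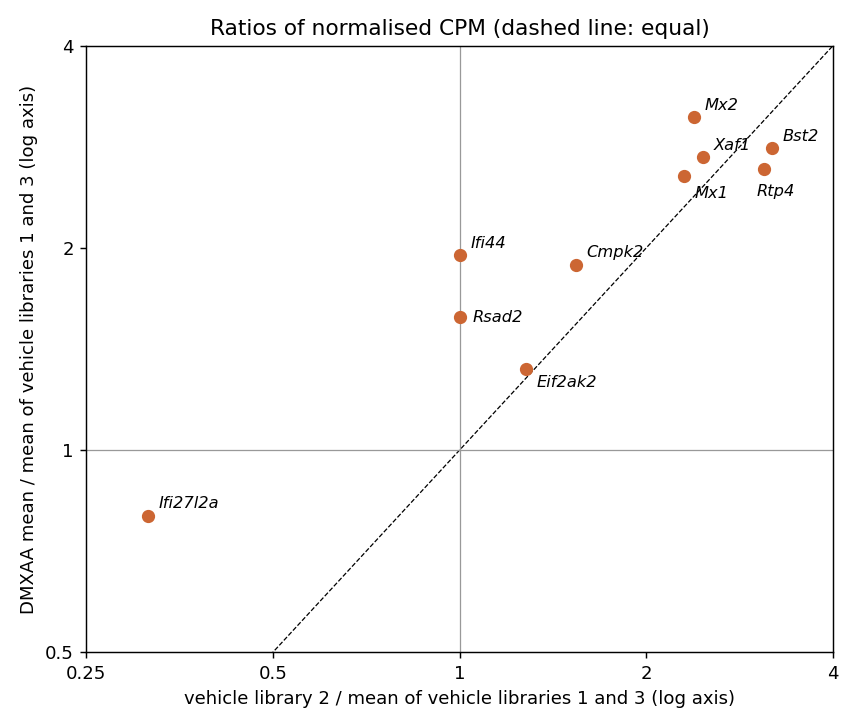
Ratio of vehicle library 2 (horizontal) and of the DMXAA mean (vertical) to the mean of vehicle libraries 1 and 3, for normalised CPM on log axes, 1 point per effector. Rsad2 and Ifi44 sit at 1.0 on the horizontal axis and at 1.58 and 1.95 on the vertical one, whereas Bst2 and Rtp4 lie below the dashed line of equality.

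Transcript levels were compared between the effectors as CPM per kilobase of exon. In vehicle, Bst2 was the most abundant at 100 ± 74.2, followed by Ifi27l2a at 44.0 ± 45.8 and Rsad2 at 9.27 ± 0.491 (SD, n = 3). Rtp4 (6.37 ± 4.58), Eif2ak2 (5.78 ± 0.97) and Cmpk2 (5.64 ± 1.5) came next, then Ifi44 (2.57 ± 0.133) and Xaf1 (2.36 ± 1.35), and last Mx2 (0.799 ± 0.439) and Mx1 (0.58 ± 0.304). Neighbours in this order overlapped between vehicle libraries, except that Ifi27l2a exceeded Rsad2, Cmpk2 exceeded Ifi44 and Xaf1 exceeded Mx2 in every one. In DMXAA the order was the same but for Cmpk2 (9.03 ± 0.328), which passed Eif2ak2 (6.96 ± 0.508). The vehicle level of Bst2 was above that of 97.0% of tested genes, and that of Mx1 above 15.1%.

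**Figure D4:**
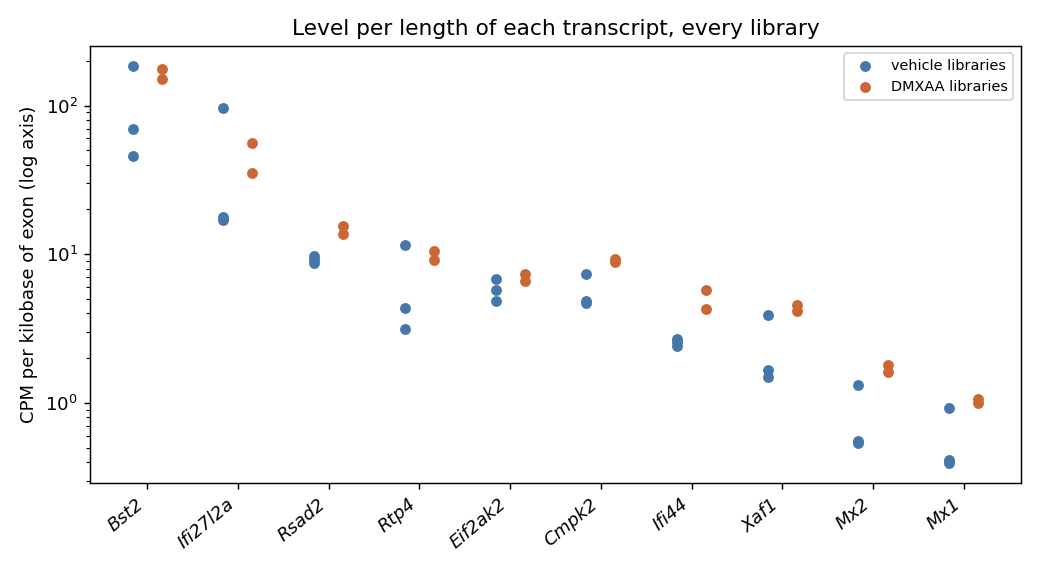
CPM per kilobase of exon (log axis) of each effector in the 3 vehicle (blue) and 2 DMXAA (orange) libraries, ordered by the vehicle mean. Bst2 is the highest and Mx1 the lowest in the mean of either group, and the vehicle points are widest for Ifi27l2a, Bst2 and Rtp4.

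Of the 10 genes, 9 were higher in both DMXAA libraries than in vehicle libraries 1 and 3, as were 22.9% of tested genes. Promoter sequence was looked at as a description of these genes, which were listed as induced by interferon. A link between motif matches and levels was not tested. RefSeq promoters on GRCm38.p6, the assembly of mm10, were matched for 6 of the 10 genes, as 250 bases before to 50 bases after the start. The stretches below are the 150 bases before the start of 5 of them, 5′ to 3′ on the strand of the gene. They were picked to set Rsad2 beside its neighbour Cmpk2 and beside effectors with and without the vehicle library 2 excess. Capitals mark AANNGAAA on either strand (TTTCNNTT when reversed), the core that interferon regulatory factors bind. The windows are chr12:26456453-26456602 (minus) for Rsad2, chr12:26469065-26469214 (plus) for Cmpk2, chr3:151749911-151750060 (minus) for Ifi44, chr8:71537473-71537622 (minus) for Bst2 and chr11:72301479-72301628 (plus) for Xaf1.
Rsad2: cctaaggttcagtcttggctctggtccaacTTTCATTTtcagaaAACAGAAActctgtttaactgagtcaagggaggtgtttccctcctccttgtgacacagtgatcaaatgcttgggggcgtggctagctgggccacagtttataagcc
Cmpk2: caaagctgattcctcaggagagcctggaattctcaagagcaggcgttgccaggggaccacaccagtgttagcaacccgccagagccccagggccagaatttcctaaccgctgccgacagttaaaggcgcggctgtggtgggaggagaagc
Ifi44: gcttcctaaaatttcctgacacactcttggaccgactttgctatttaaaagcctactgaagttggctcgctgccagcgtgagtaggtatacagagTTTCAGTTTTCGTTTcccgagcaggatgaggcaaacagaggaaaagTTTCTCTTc
Bst2: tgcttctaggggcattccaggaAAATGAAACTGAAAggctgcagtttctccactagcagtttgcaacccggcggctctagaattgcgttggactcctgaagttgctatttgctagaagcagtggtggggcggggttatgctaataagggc
Xaf1: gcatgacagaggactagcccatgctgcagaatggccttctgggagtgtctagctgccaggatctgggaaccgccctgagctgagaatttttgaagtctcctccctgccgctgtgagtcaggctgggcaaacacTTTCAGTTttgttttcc

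The interferon-stimulated response element, read as GAAA, any 2 bases and GAAA on either strand, was found in 3 of the 6 promoters (Rsad2, Bst2 and Eif2ak2) and in 3.44% of all 32851 promoters in the table. In Rsad2 it lay on the opposite strand, 120 to 111 bases before the start. In Bst2 overlapping copies spanned 130 to 115 bases before the start, and in Eif2ak2 the match lay 19 to 28 bases after it. The longer form, with C after the last A, was in Bst2 and Eif2ak2, against 0.819% of promoters. The shorter core AANNGAAA, searched after the sequences had been seen and contained in every longer match, was in 5 of the 6 (all but Cmpk2) and in 23.9% of promoters. In Ifi44 and Xaf1 its capitals share the letters TTTCAGTT, from 55 and 17 bases before the start. The gamma-activated site TTCNNNGAA, which reads the same on both strands, was in Bst2 and Eif2ak2 and in 8.3% of promoters, and TATAAA on either strand was in Rsad2 alone and in 13.6%.

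Upstream of the effectors, interferon transcripts were close to undetected. Of 20 interferon ligand genes 16 had 0 counts in every library, Ifnb1 among them, where the limit for a gene without counts is 0.149 to 0.171 CPM per library (3 counts, counting error only). The remaining 4, which include Ifng, summed to 1 to 3 counts per library, and none could be tested. Among 20 receptor and signalling genes the median log2 fold change was 0.03, with 3 higher and 1 lower at an unadjusted p below 0.05, against 3.89% and 2.65% of all tested genes, and 0 called by edgeR. Without vehicle library 2, 8 were higher and 2 lower (6.73% and 5.08% of tested genes). Without DMXAA library 1, 2 were higher and 0 lower, and without DMXAA library 2, 1 was higher and 0 lower (1.97% and 0.872% of tested genes higher). In 5 of the 20 both DMXAA values were higher than any vehicle value, and in 3 both were lower, against 13.7% and 12.3% of all tested genes. Irf7, which drives interferon-alpha genes, was at 48.8, 193 and 68.4 CPM with vehicle and at 343 and 478 CPM with DMXAA. Usp18, the negative regulator of the receptor, was at 7.29 ± 2.15 and 12.6 ± 1.18 CPM, and Irf3, the factor that STING activates through Tbk1, at 50.1 ± 3.43 and 41.2 ± 0.807 CPM. Stat2 and Irf9 are parts of the factor that binds the response element. Stat2 was at 24.5, 50.9 and 26.2 CPM with vehicle and 36.2 and 38.7 CPM with DMXAA, and Irf9 at 28.7, 44.6 and 28.9 and then 42.1 and 51.5 CPM. For both the groups overlapped. Tmem173, which encodes STING, was at 4.54, 5.80 and 6.49 CPM with vehicle and 4.83 and 3.88 CPM with DMXAA.

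Of 42 other interferon-stimulated antiviral genes (Usp18 is on both lists), 40 had estimates above 0, with a median log2 fold change of 0.43. At an unadjusted p below 0.05, 18 were higher and 0 lower, against 3.89% and 2.65% of all tested genes, and edgeR called 0. In 24 both DMXAA values were higher than any vehicle value, against 13.7%. The 18 became 35 without vehicle library 2 (6.73% of tested genes) and 8 without vehicle library 3 (3.33%). They became 10 without DMXAA library 1 (1.97%) and 5 without DMXAA library 2 (0.872%). The smallest p values were those of Trim25, the ubiquitin ligase of the RIG-I pathway (105 ± 1.67 and 157 ± 5.15 CPM), Ifitm3, which blocks virus entry (54.7 ± 1.70 and 85.0 ± 9.65 CPM), and Oas1a, an oligoadenylate synthetase (5.01 ± 1.38 and 12.3 ± 2.61 CPM). Vehicle library 2 was the highest vehicle library for 32 of the 42, against 37.2% of all tested genes. It reached at least 2 times the mean of vehicle libraries 1 and 3 in 9 of the 42. The same held for 5 of the 20 receptor and signalling genes and 5 of the 10 effectors, against 1.22% of all tested genes.

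Genes related to the effectors by family or partnership, but not chosen as interferon-induced, had a median log2 fold change of 0.08 over 18 tested of 22. One was higher at an unadjusted p below 0.05, the signalling adaptor Traf6 (38.1 ± 1.13 and 46.0 ± 1.22 CPM), where 3.89% of all tested genes were, and 0 were called by edgeR. The count was 3 without vehicle library 2 (6.73% of tested genes) and 0 without DMXAA library 2 (0.872%). In 5 of the 18 both DMXAA values were higher than any vehicle value, and in 2 both were lower. Of all tested genes, 13.7% and 12.3% had these patterns. Cmpk1, the cytosolic counterpart of Cmpk2, was at 149 ± 19.0 and 154 ± 4.07 CPM. The mitochondrial dynamin-like gene Opa1 was at 136 ± 1.52 and 152 ± 1.90 CPM. Of the 16 nearest tested protein-coding genes on either side of the effectors, 7 had estimates above 0 and 2 (Colec11, higher, and Smtnl2, lower) had an unadjusted p below 0.05, where 6.55% of all tested genes had one in either direction.

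The genes closest to Rsad2 across the 5 libraries were ranked by the root mean square difference of centred log2 CPM, among 13210 genes with a mean log2 CPM above 1. They were Zfp35 (0.0237), Ifitm3 (0.0348), Leng1 (0.0539), the lactate transporter Slc5a12 (0.0571) and Gdf10 (0.0594), where the median over all genes was 0.36. Of the other effectors, Ifi44 was the closest at 0.187, at rank 284 of all compared genes, followed by Eif2ak2 (0.227) and Cmpk2 (0.239). Mx1 (0.448), Xaf1 (0.509), Mx2 (0.516), Rtp4 (0.611), Bst2 (0.653) and Ifi27l2a (0.955) were farther from Rsad2 than that median. Zfp35 ran at 33.4, 35.4 and 37.4 CPM with vehicle and 50.3 and 58.4 CPM with DMXAA.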

How the data were processed

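Read counts per Ensembl gene were deposited by the authors as integers, in a single table with a column for each of the 5 libraries. Columns were assigned by name (CO as control, XA as DMXAA). The tools named, per the submitters' processing notes, are featureCounts, Subread, HISAT2 and DESeq2 1.16.1, with the build mm10. The sources used here do not give the annotation, the strand setting or the multi-mapping rule, so reads of overlapping or antisense genes and of paralogues cannot be told apart. The labels' protocols name 2 library kits (TruSeq and NEBNext Ultra) without saying which was used for which library.

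Symbols, positions and exon lengths came from GENCODE M21 (99.9% of IDs matched). The test was edgeR 4.0.16 (R 4.3.3), glmQLFit and glmQLFTest, two-sided, group as the only term, default expression filter, Benjamini-Hochberg adjustment over 16226 genes; it was tested on simulated counts. CPM used TMM library sizes, and centred log2 levels a prior count of 2. Alternatives were DESeq2 1.42.0, RLE scaling, no filter, 1 CPM in 2 libraries, robust empirical Bayes, the replicate number as a block, a length correction, and leaving out each library. Named genes beside the effectors were the 3 smallest p of each pathway list, set signalling and marker genes, nearest neighbours and the 5 closest to Rsad2. Relatives and further markers were named after their values were seen. Members and lists were chosen with earlier results of these data known.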

Additional observations from a re-analysis of the deposited data

How the results depend on the processing

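With 3 vehicle and 2 DMXAA libraries, edgeR called 0 of 16226 genes (1062 at an unadjusted p below 0.05) and 0 of the 10 effectors. DESeq2 called 54 genes and edgeR without an expression filter 34 genes, in each case with 2 effectors, Rsad2 and Ifi44; without the filter the related genes at an unadjusted p below 0.05 numbered 2. The cause was not tested. Leaving out 1 library gave 0 to 2 genes called and 2 to 9 effectors at an unadjusted p below 0.05 (0.872% to 6.73% of tested genes). It gave a median log2 fold change of the effectors from 0.59 to 1.16 (highest without vehicle library 2). The unadjusted counts ran from 5 to 36 of the other interferon-stimulated genes, from 1 to 10 of the signalling genes and from 0 to 3 of the related genes; fewer libraries were fitted in each. Over all 12 alternatives the estimates of 9 effectors stayed above 0, and that of Ifi27l2a ran from -0.34 to 1.37, below 0 without vehicle library 2 (-0.32), vehicle library 3 (-0.34) or DMXAA library 2 (-0.33). Adjusted p of Rsad2 ran from 0.0016 to 1.0 and of Ifi44 from 0.0014 to 1.0.

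With the replicate block, 4 genes were called, none an effector. Same-numbered libraries deviated from their group means with correlations over genes of 0.0748 and 0.0809, so the numbers were not taken to pair them. At the depth of these libraries Mx1, with 27 to 76 counts, has the largest counting error of the 10 genes.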

Other observations

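Vehicle library 2 was set beside the DMXAA libraries for a few other interferon-related genes, chosen after their values were seen; differences between these genes were not tested. Irf7 was 3.29 times the mean of vehicle libraries 1 and 3 in vehicle library 2, and its DMXAA mean was 2.13 times vehicle library 2. Irf1 stood at 3.35 times in vehicle library 2, and its DMXAA mean was 0.393 times vehicle library 2. Its levels were 26.9, 88.5 and 25.9 CPM across vehicle libraries 1 to 3, against 39.4 and 30.2 CPM with DMXAA. Isg15 and Ifit1 had DMXAA means of 1.05 and 1.07 times vehicle library 2, and Mx1 and Xaf1 of 1.11 times. Trim25 and Ifitm3 stood at 0.979 and 1.03 times in vehicle library 2, as Rsad2 and Ifi44 stood at 1.0, and had DMXAA means of 1.51 and 1.52 times that library.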
